A study of Mus musculus with 8 samples.

Results

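The proteasome is encoded by a family of genes whose symbols begin with Psm, and 49 gene names of the deposited table carry such a symbol followed by a class letter and a number, out of 23284 genes in all. No name with a pseudogene suffix was among them. Of the 49 names, 48 belong to the proteasome and its helpers, and Psmc3ip, a meiotic recombination factor, was matched by its letters only. The core particle accounts for 14 of the genes (Psma1 to Psma7 and Psmb1 to Psmb7) and the regulatory particle for 17 (Psmc1 to Psmc6 and 11 Psmd genes). The remaining proteasome genes are 5 inducible or tissue-specific core subunits, 3 assembly factors of the base, 5 activators or inhibitors and 4 assembly chaperones of the core. The cells were P19, an embryonal carcinoma line of the mouse, in an RNA-seq study of mRNA stability after loss of UPF3A, a factor of nonsense-mediated mRNA decay. The knockdown arm received an siRNA against Upf3a and the control arm a control siRNA, with no other stated genetic change. One day later all cells were given actinomycin D, which blocks transcription, and RNA was taken 0, 15, 105 and 225 min after it in each arm. The labels list 2 cultures for each of the 8 conditions, but the table holds 1 value per gene and condition, in FPKM (fragments per kilobase of transcript, relative to sequencing depth), so every n is a number of time points, and p-values cover disagreement between time points only.

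The proteasome degrades proteins tagged with ubiquitin. Its barrel-shaped core particle is built from stacked rings of alpha and beta subunits, and the peptide bonds are cut inside by beta subunits, while the alpha rings gate the entrance. The regulatory particle caps the barrel: ATPases at its base unfold the substrate, and the lid recognises and removes ubiquitin. Dedicated chaperones assemble both particles, and in mammals the transcription factor Nfe2l1 raises most subunit genes together through antioxidant response elements in their promoters. Pluripotent stem cells are known for high proteasome activity.

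Because the subunit genes are described as controlled together in transcription and these data follow their mRNAs after transcription was blocked, both promoters and 3′ UTRs were searched. Promoter windows run from 250 bases before to 50 bases after a start site (RefSeq, GRCm38.p6) and matched 41 of the 49 names. The antioxidant response core TGACNNNGC, on either strand, was present for 6 of these 41 genes (14.6%), against 17.3% of 8223 tested genes with a window. CCAAT, on either strand, was present for 15 of the 41 (36.6%), against 44.0% of the tested genes. Neither motif was more frequent in these windows than among tested genes. Shown here are 2 catalytic core subunits and 2 regulatory subunits that hold the antioxidant core, from Psmb5 at chr14:54617946-54618245 (minus strand), Psmb6 at chr11:70525107-70525406 (plus strand), Psmc6 at chr14:45329574-45329873 (plus strand) and Psmd12 at chr11:107479278-107479577 (plus strand). Capitals mark the match, which in Psmc6 and Psmd12 is on the opposite strand.
Psmb5: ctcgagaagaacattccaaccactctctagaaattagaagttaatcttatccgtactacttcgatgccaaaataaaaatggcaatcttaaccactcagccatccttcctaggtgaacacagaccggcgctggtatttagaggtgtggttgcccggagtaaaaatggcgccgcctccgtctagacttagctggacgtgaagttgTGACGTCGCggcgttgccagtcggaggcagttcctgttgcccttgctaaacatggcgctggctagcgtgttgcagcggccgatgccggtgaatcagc
Psmb6: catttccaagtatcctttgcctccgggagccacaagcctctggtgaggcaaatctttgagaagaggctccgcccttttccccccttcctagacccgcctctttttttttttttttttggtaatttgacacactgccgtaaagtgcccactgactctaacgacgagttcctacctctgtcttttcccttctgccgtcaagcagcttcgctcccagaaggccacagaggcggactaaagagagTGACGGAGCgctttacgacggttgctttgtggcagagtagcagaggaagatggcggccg
Psmc6: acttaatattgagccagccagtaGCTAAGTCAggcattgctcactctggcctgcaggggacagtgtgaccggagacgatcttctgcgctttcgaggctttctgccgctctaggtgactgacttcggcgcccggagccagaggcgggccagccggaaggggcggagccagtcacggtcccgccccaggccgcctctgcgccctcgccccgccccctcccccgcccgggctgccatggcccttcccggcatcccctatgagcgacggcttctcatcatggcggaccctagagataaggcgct
Psmd12: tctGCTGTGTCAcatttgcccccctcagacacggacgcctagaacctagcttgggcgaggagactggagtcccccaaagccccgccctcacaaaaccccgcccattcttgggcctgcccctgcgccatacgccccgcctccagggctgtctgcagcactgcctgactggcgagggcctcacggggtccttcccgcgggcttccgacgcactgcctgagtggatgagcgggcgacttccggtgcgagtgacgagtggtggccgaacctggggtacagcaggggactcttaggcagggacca

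The 3′ UTR motif TATTTAT, the core of an AU-rich element known for marking unstable mRNAs, was present for 5 of 47 tested names (10.6%), against 29.6% of 11016 annotated genes tested, on the sense strand of 1 GENCODE transcript a gene. Proteasome 3′ UTRs were also short, with a median of 237 bases against 1086 bases over all annotated genes tested, and the motif count moves with that length. Psmb1, a beta subunit, held 3 sites and the others 1 each, with some sites of Psmb1 overlapping. The sites follow with 10 flanking bases on each side, capitals marking the motif, because the slopes of their genes are described later.
Psma2 site at base 1000: gttactcgtgTATTTATtgtatatctg
Psmb1 site at base 326: tatctggataTATTTATttattttgag
Psmb1 site at base 330: tggatatattTATTTATtttgagattt
Psmb1 site at base 395: cgtgcatgcaTATTTATgtgaacaggg
Psmc6 site at base 938: aaattgagatTATTTATagttaattct
Psme3 site at base 1048: atgtttctcgTATTTATagtattgtgc
Psmc3ip site at base 212: gtatttgtaaTATTTATtgtaatataa

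Upf3a had 5.27, 4.52, 4.76 and 4.16 FPKM at the 4 times in knockdown cells and 13.6, 13.95, 14.00 and 14.98 FPKM in control cells, and the arms did not overlap. Its log2 ratio averaged -1.42 (SD 0.17 over 4 time points), with an exact two-sided sign-flip p of 0.125, the smallest that 4 pairs allow. FPKM totals ran from 537437 to 923333 in knockdown cells and from 537350 to 880304 in control cells, and sequencing depth is unknown. All 8 embryonal carcinoma markers were tested. Their summed level was 2341 to 4039 FPKM in knockdown cells and 1953 to 3374 FPKM in control cells. In knockdown cells 6 of them were called higher, against 26.1% of all genes tested, and 0 lower, against 22.3%. The called differences ran from 0.15 log2 units for Pou5f1 (SE 0.046, limma adjusted p = 0.0329) to 1.11 for Tdgf1 (SE 0.043, limma adjusted p = 4.74e-05). The 6 fibroblast markers summed to 8.72 to 12.7 FPKM in knockdown cells and 10.0 to 15.7 FPKM in control cells. Of the 3 tested 1 was called lower, against 22.3% of all genes. The 5 immune markers summed to 1.65 to 3.77 FPKM in knockdown cells and 2.41 to 2.62 FPKM in control cells, with 1 of them tested and not called and Cd3e at 0 in all control conditions. The 5 neural markers summed to 47.1 to 63.3 FPKM in knockdown cells and 55.3 to 77.2 FPKM in control cells. Of the 3 tested 2 were called lower, against 22.3% of all genes. Fewer cells of a type and less RNA per cell cannot be told apart in such bulk RNA, and the part of these markers in any result below was not tested.

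The median core particle mRNA stood above the median regulatory particle mRNA in every condition, while the ranges of the particles overlapped. On the FPKM scale, which is per transcript length, the 14 core genes had a median level of 293 FPKM over the 8 conditions (range of gene means 158 to 537 FPKM), and the 17 regulatory genes 134 FPKM (76.1 to 212 FPKM). The ratio of the core median to the regulatory median was 1.90, 1.91, 2.09 and 2.23 at 0, 15, 105 and 225 min in knockdown cells, and 2.05, 2.03, 2.17 and 2.20 in control cells. All 49 names together made up 1.14% to 1.18% of the FPKM total in knockdown conditions and 1.09% to 1.13% in control conditions.

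**Figure D1:**
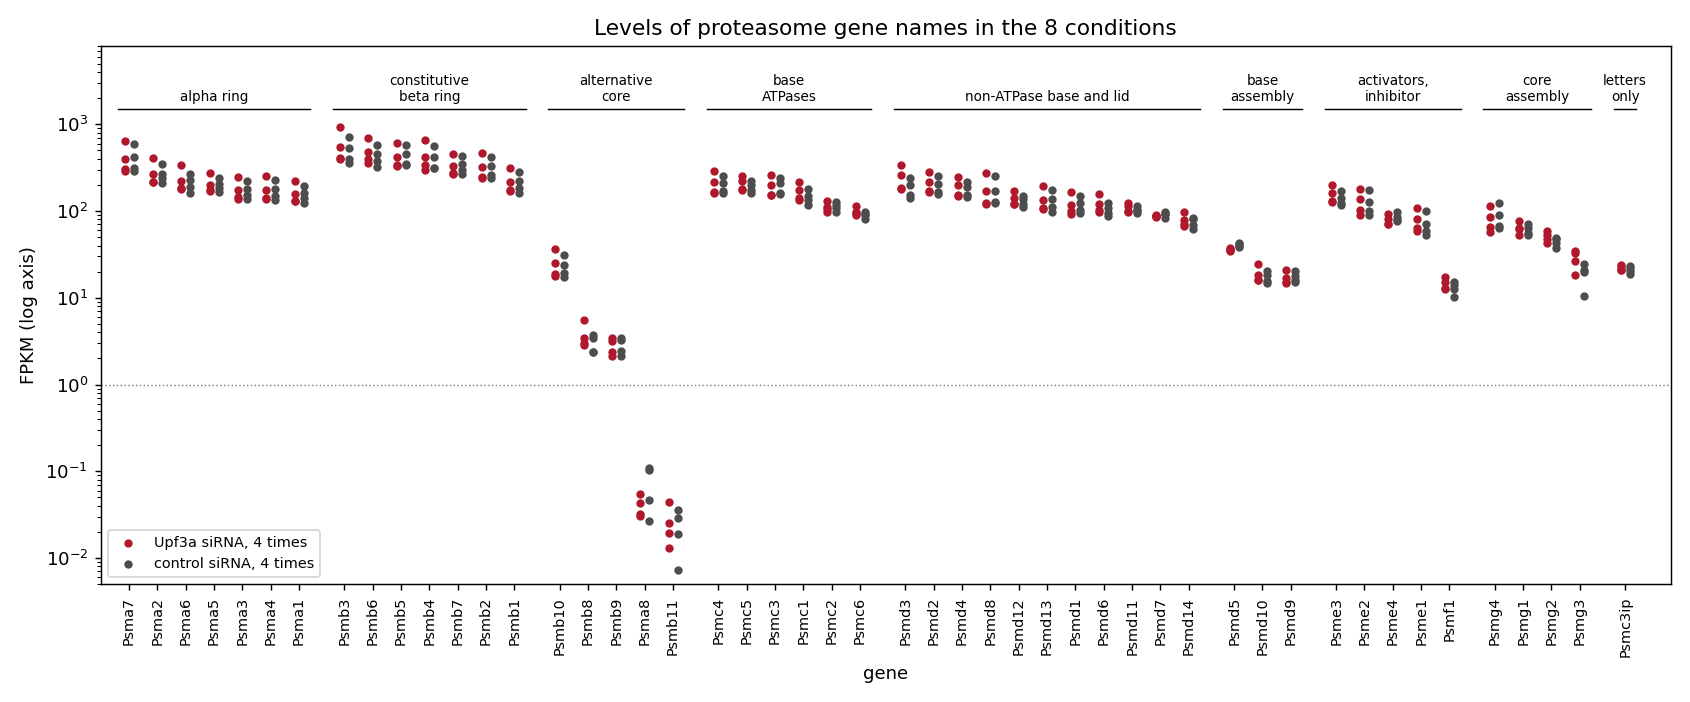
FPKM on a log axis for each of the 49 names, grouped by role and ordered by mean; red points are the 4 knockdown conditions and grey points the 4 control conditions. Core subunits lie between 124 and 933 FPKM, regulatory subunits between 62.7 and 337 FPKM, and Psma8 and Psmb11 below 1 FPKM (dotted line).

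Within the core, the median level was 413 FPKM for beta subunits and 202 FPKM for alpha subunits. Psmb3, a non-catalytic beta subunit, had the highest mean of all names, 537 FPKM, with 405, 395, 550.4 and 933 FPKM at the 4 times in knockdown cells and 398, 359, 531 and 722 FPKM in control cells. It was above the next gene, Psmb6, in 7 of 8 conditions. Psmb6, which carries the caspase-like site, had 358, 398, 483 and 699.6 FPKM in knockdown cells and 373, 323, 456 and 580.4 FPKM in control cells. Psmb5, which carries the chymotrypsin-like site, had 332, 338, 424 and 613 FPKM in knockdown cells and 348, 341, 459.6 and 572 FPKM in control cells. Psmb7, which carries the trypsin-like site, had 269, 273, 329 and 458 FPKM in knockdown cells and 294, 267, 344 and 435 FPKM in control cells. All 3 catalytic subunits ran high at 225 min in both arms, and the arms overlapped in range for each. The locus of Psmb5 is shared with the microRNA gene Mir686, which was listed at 0.0725 to 1769 FPKM across conditions, so reads there may have been split between both. Psmb1 was the lowest beta subunit, at a mean of 216 FPKM. Among alpha subunits Psma7 was highest at a mean of 405 FPKM and Psma1 lowest at 158 FPKM. Neighbours in the order of levels were often not separated: Psmb1 exceeded the next gene, Psmd3, in 4 of 8 conditions, and Psmd3 exceeded Psmc4 in 4 of 8.

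Regulatory subunits spanned a narrower range. Psmd3, a structural subunit of the lid, was highest at a mean of 212 FPKM, and Psmd14, the deubiquitinating enzyme of the lid, was lowest at 76.1 FPKM. Psmd14 had 67.3, 70.7, 79.3 and 97.1 FPKM in knockdown cells and 69.1, 62.7, 80.3 and 82.2 FPKM in control cells. Among the 6 base ATPases Psmc4 was highest at 203 FPKM and Psmc6 lowest at 95.1 FPKM. The assembly factors of the base, Psmd5, Psmd9 and Psmd10, were lower than every regulatory subunit, with means of 38.2, 17.2 and 18.03 FPKM. Of the activators, Psme3, the nuclear activator, had a mean of 146 FPKM, Psme2 126 FPKM, Psme4 81.7 FPKM and Psme1 73.9 FPKM. Psmf1, the inhibitor PI31, had 13.8 FPKM.

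The interferon-inducible catalytic subunits were present at a small share of their constitutive counterparts. Psmb8, which can replace Psmb5, had 2.83, 2.98, 3.48 and 5.59 FPKM in knockdown cells and 2.39, 2.36, 3.41 and 3.77 FPKM in control cells, or 0.867% ± 0.040 of Psmb5 in knockdown cells and 0.695% ± 0.035 in control cells (mean ± SD, n = 4 time points each). The Psmb8 share was 0.819% or more at every time in knockdown cells and 0.743% or less in control cells, without overlap. Psmb9, which can replace Psmb6, had 2.36, 2.14, 3.48 and 3.17 FPKM in knockdown cells and 2.43, 2.15, 3.47 and 3.22 FPKM in control cells, 0.592% ± 0.12 of Psmb6 in knockdown cells and 0.659% ± 0.085 in control cells, and here the arms overlapped. Psmb10, which can replace Psmb7, stood higher, with 17.6, 18.9, 25.2 and 36.2 FPKM in knockdown cells and 19.5, 17.5, 23.7 and 30.8 FPKM in control cells, 7.26% ± 0.63 of Psmb7 in knockdown cells and 6.79% ± 0.24 in control cells, with overlap. Exons of Psmb9 and Tap1 overlap on opposite strands, as do those of Psmb8 and Gm20496, and no source used here says whether counting was stranded. Of 11 interferon response genes, 8 were tested. In knockdown cells 2 (Tap1 and B2m) were called lower, against 22.3% of all genes, and none higher, against 26.1%. The list summed to 77.9 to 101 FPKM in knockdown cells and 80.6 to 99.3 FPKM in control cells. Ifit1 and Ifit3 were below 0.1 FPKM throughout. Psma8, an alpha subunit of the testis, and Psmb11, the beta subunit of the thymic cortex, averaged 0.0558 and 0.0242 FPKM and were not tested, since tests were limited to genes averaging 1 FPKM or more. Psmc3ip was listed at 21.00, 20.8, 22.4 and 23.8 FPKM in knockdown cells and 20.3, 19.03, 21.9 and 23.1 FPKM in control cells. It shares a locus with Mlx. Of 5 testis markers beside Psma8 and Psmc3ip, Tnp1 was at 0 throughout, and the list summed to 4.57 to 6.77 FPKM in knockdown cells and 4.80 to 7.67 FPKM in control cells.

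After actinomycin D, the FPKM of most proteasome genes was higher in both arms, while that of the median gene hardly moved. The FPKM total was itself highest at 225 min, 1.72 times its value at 0 min in knockdown cells and 1.56 times in control cells, and the summed FPKM of the 49 names was 1.78 times in knockdown cells and 1.51 times in control cells. The share of the total was thus 1.14% at 0 min and 1.18% at 225 min in knockdown cells, and 1.13% and 1.09% in control cells. Slopes are given on the deposited scale and say nothing of the amount per cell. With arm as a covariate, the slope over hours on the log2(FPKM + 1) scale was above 0 in 43 of 47 tested names at a limma adjusted p below 0.05, against 42.7% of all 11452 genes tested, below 0 in 1, against 38.6%, and not called in 3. The median slope was 0.18 log2 units per hour, against 0.014 over all genes. The direction depended on scaling. Scaled to the FPKM total, an alternative added after the data were seen, 7 members were called higher and 19 lower, with a median of -0.013, against -0.15 over all genes. Of all 11452 genes, 559 were then called higher and 8581 lower. Scaled to ribosomal protein genes, no member was called higher, 41 were called lower, and the median was -0.10, against -0.23 over all genes. That scaling gave 50 higher and 10686 lower over all genes. Under quantile normalization 15 members were called higher and 8 lower, with a median of 0.015 against 0.032 over all genes. There 5309 of all genes were higher and 3784 lower. A positive slope was also common among other abundant genes: among the 1719 genes averaging 50 FPKM or more, a comparison added after the data were seen, 84.9% were called higher, against 36 of 37 members (97.3%), and the medians were 0.19 for members and 0.17 for all.

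**Figure D2:**
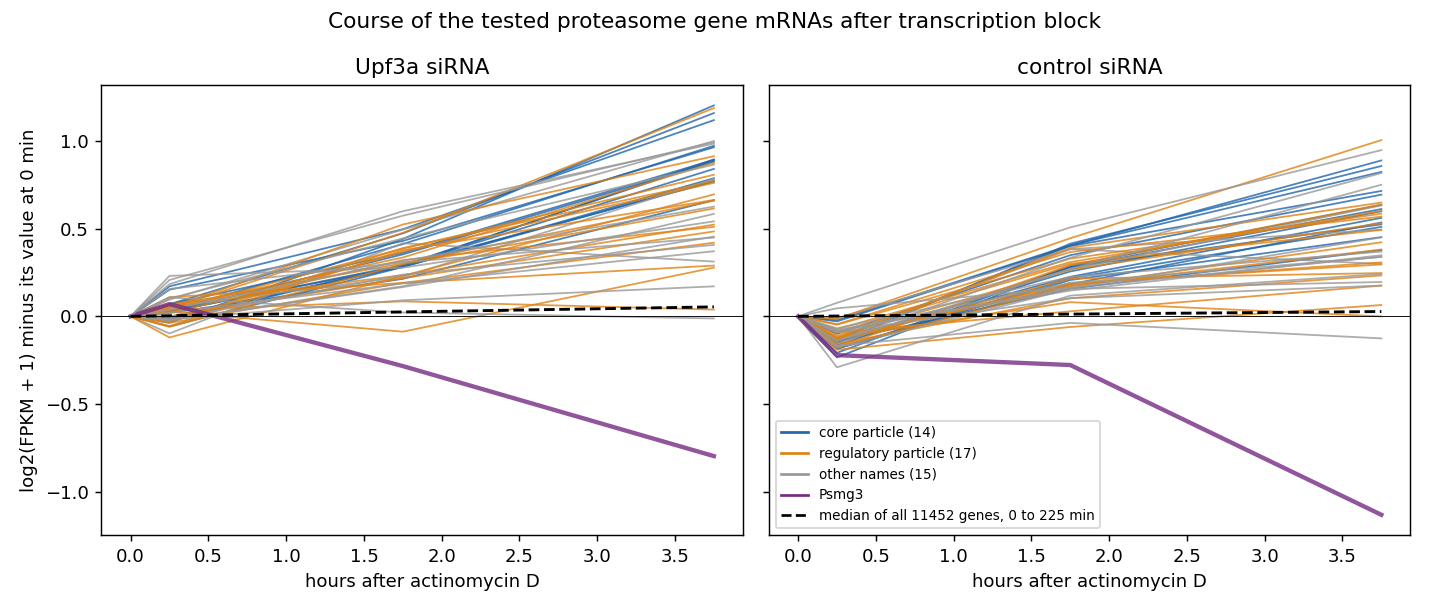
log2(FPKM + 1) relative to 0 min against hours after actinomycin D, knockdown arm left and control arm right, for 47 tested names. Most lines end above the median of all genes (dashed) at 225 min, with median FPKM folds over 0 min of 1.70 in knockdown cells and 1.43 in control cells, and Psmg3 ends below it; after scaling to ribosomal protein genes all slopes except those of Psmb3 and Psmd8 were negative, and after scaling to the FPKM total 29 of 47.

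Every gene of the core particle had a positive slope as deposited. All 14 core genes were called higher, against 42.7% of all genes tested and 84.9% of the 1719 genes averaging 50 FPKM or more. Their median slope was 0.21, with a range of 0.15 to 0.29 log2 units per hour. Over those 1719 genes the median was 0.17. The FPKM at 225 min was a median of 1.86 times that at 0 min in knockdown cells and 1.52 times in control cells. Psmb3 had the steepest slope of the core, 0.29 (SE 0.024, limma adjusted p = 1.1e-05). Psma7 followed at 0.28 (SE 0.019, limma adjusted p = 4.38e-06), with 288, 302, 399.7 and 643 FPKM at the 4 times in knockdown cells and 316, 288, 419 and 586 FPKM in control cells. The shallowest was Psma5, at 0.15 (SE 0.020), with 172, 174, 199.7 and 273 FPKM in knockdown cells and 184, 166, 205 and 239 FPKM in control cells. Even Psma5 stood higher at 225 min than at any other time in each arm. The slopes of the catalytic subunits lay close together, at 0.22 for Psmb5, 0.22 for Psmb6 and 0.19 for Psmb7. Psma2 and Psmb1, the core genes with a TATTTAT site shown earlier, had slopes of 0.21 and 0.21.

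The regulatory particle was more mixed. Of 17 genes 15 were called higher (88.2%), against 42.7% of all genes tested and 84.9% of genes averaging 50 FPKM or more. The median slope was 0.16, with a range of 0.014 to 0.30 log2 units per hour, against a median of 0.17 over those abundant genes. The core median exceeded the regulatory median by 0.052. Scaled to the FPKM total, the core median was 0.013 and the regulatory median -0.038. The FPKM at 225 min was a median of 1.58 times that at 0 min in knockdown cells and 1.34 times in control cells. Psmd8, a lid subunit, had the steepest slope of all names, 0.30 (SE 0.016, limma adjusted p = 1.65e-06), with 121, 124, 168 and 276 FPKM in knockdown cells and 126, 124, 171 and 253 FPKM in control cells. Psmd7, the catalytically inactive partner of Psmd14 in the lid, was nearly flat, with 85.8, 88.00, 91.1 and 88.1 FPKM in knockdown cells and 91.7, 84.2, 97.1 and 91.7 FPKM in control cells. Its slope was 0.014 (SE 0.017, limma adjusted p = 0.478), and its fold of 225 over 0 min was 1.03 in knockdown cells and 1.00 in control cells. Psmc6, a base ATPase with a TATTTAT site, was the other gene without a call, with 95.2, 96.96, 89.5 and 116 FPKM in knockdown cells and 93.6, 81.9, 89.7 and 97.9 FPKM in control cells and a slope of 0.053 (SE 0.024, limma adjusted p = 0.0671). The other 5 ATPases were called, between 0.093 for Psmc2 and 0.19 for Psmc4. Psmd12, the lid subunit whose promoter is shown, had a slope of 0.12 (SE 0.017) and 121, 121, 140.5 and 169 FPKM in knockdown cells and 121, 111, 138 and 149 FPKM in control cells. Psmd11, the lid subunit that bridges to the core, had the lowest called slope of the particle, 0.073 (SE 0.016), and that call and the one for Psmc2 were lost without the 225 min values.

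Among the remaining names, all 5 activators and inhibitors had called positive slopes as deposited, against 42.7% of all genes tested. The paired subunits Psme1 and Psme2 were at 0.22 and 0.25 and Psme3 at 0.15. Of the base assembly factors, Psmd9 and Psmd10 were called, at 0.12 and 0.14, while Psmd5 had a slope of -0.014 (SE 0.017, limma adjusted p = 0.47). All 3 tested inducible subunits were called, with 0.17 for Psmb8, 0.11 for Psmb9 and 0.23 for Psmb10, although the Psmb9 call was lost without the 0 or the 15 min values. Psmc3ip, which is no proteasome gene, had a slope of 0.055 (SE 0.014). Across the 47 names the slope went with level (Spearman 0.63, Pearson 0.48 against log2 mean FPKM) and inversely with 3′ UTR length (Spearman -0.41, Pearson -0.24). Over all 11452 genes the Spearman value against level was 0.43. Over the 11016 annotated genes the value against 3′ UTR length was -0.35. These are descriptions across genes measured in the same 8 conditions.

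On the deposited scale the first 15 min differed between the arms. From 0 to 15 min, 30 of 47 names had a higher log2(FPKM + 1) in knockdown cells, against 50.04% of all genes, and 2 of 47 in control cells, against 37.5% of all genes. No core or regulatory gene was higher at 15 min than at 0 min in control cells. The median change over members was 0.028 log2 units in knockdown cells and -0.13 in control cells. Over all genes it was 0.00010 in knockdown cells and -0.035 in control cells. From 15 to 105 min, 44 names had a higher value in knockdown cells, against 55.1% of all genes, and 46 in control cells, against 54.4%. The FPKM total itself went from 537437 at 0 min to 548042 at 15 min in knockdown cells. In control cells it went from 562848 to 537350. The part of these totals in the early steps was not tested. All these steps compare single values and carry no test.

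The level difference between arms, fitted over the 4 times with time as a factor, was called for few proteasome genes. Of 47 tested names 8 were higher in knockdown cells at a limma adjusted p below 0.05 (17.0%), against 26.1% of all genes tested, 1 was lower, against 22.3%, and 38 were not called. The median difference was 0.064 log2 units, against 0.0046 over all genes, and both counts depended on scaling. Scaled to ribosomal protein genes, 21 members were higher and 0 lower, against 3826 and 1285 of 11452 genes. Median-of-ratios scaling gave 5 higher and 3 lower, against 2632 and 3046 of all genes. Without the 15, the 105 or the 225 min values 2, 3 and 2 members were higher, against 19.7%, 20.5% and 23.6% of all genes. The authors' confidence limits of the arms overlapped for every member at every time, against 2.90% of all tested genes with limits apart at any time. Those limits reached a median of 26.3% to 27.2% above the FPKM of members. One sign at all 4 times was seen for 12 names higher in knockdown cells, against 31.8% of all genes, and for 3 lower, against 28.6%.

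**Figure D3:**
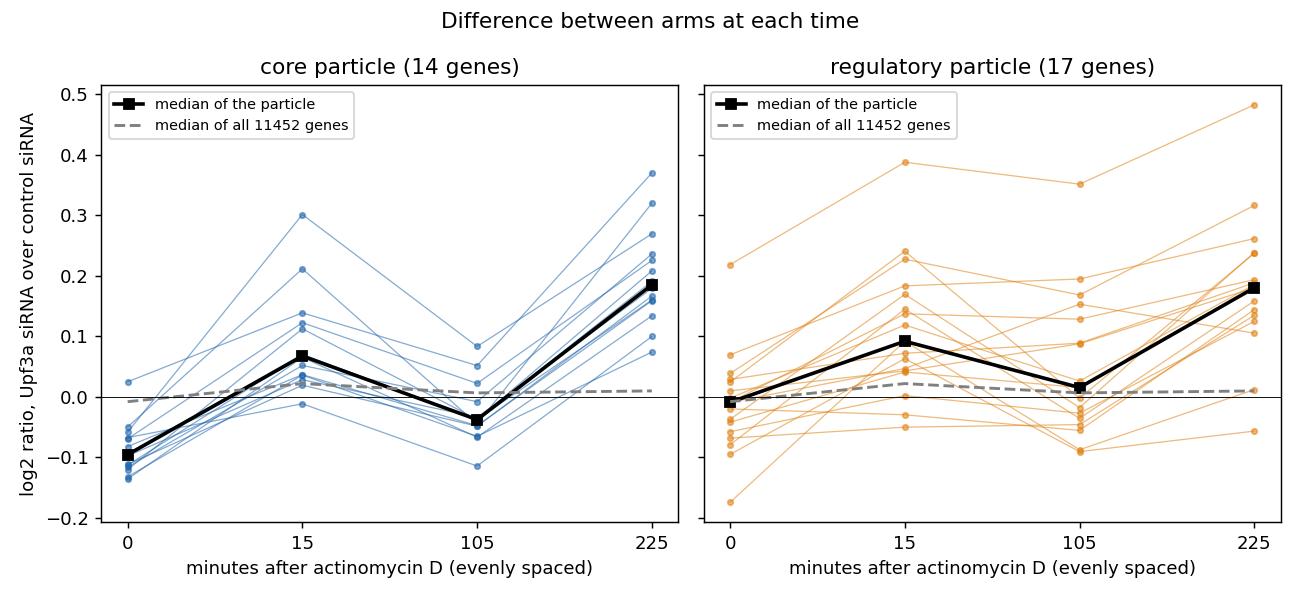
log2 ratio of knockdown over control on log2(FPKM + 1) at each time, for the 14 core genes (left) and 17 regulatory genes (right), with the median of each particle in black and of all genes dashed. At 0 min 1 of 14 core genes was higher in knockdown cells, against 48.3% of all genes, and at 225 min 14 of 14, against 51.6%. The FPKM total was 537437 in knockdown and 562848 in control cells at 0 min, and 923333 and 880304 at 225 min.

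In the core particle 0 of 14 genes passed the limma test of level, against 26.1% of all genes called higher and 22.3% lower. An unadjusted limma p below 0.05 was found for 0 of the 14, against 6381 of 11452 genes. The core median was 0.030 log2 units (range -0.024 to 0.15), and it was -0.037 after quantile normalization and -0.026 without the 225 min values. Its ratio moved between times as a block. Its median log2 ratios at the 4 times were -0.096, 0.067, -0.038 and 0.18, against all-gene medians of -0.0083, 0.022, 0.0062 and 0.0095. Of its 14 genes 1, 13, 3 and 14 were higher in knockdown cells. The regulatory particle had medians of -0.0093, 0.092, 0.015 and 0.18, with 6, 15, 9 and 16 of 17 genes higher. Over all genes 48.3%, 53.7%, 51.1% and 51.6% were higher at these times. The FPKM total was likewise lower, higher, lower and higher in knockdown cells than in control cells. It was 537437, 548042, 662435 and 923333 in knockdown cells and 562848, 537350, 686647 and 880304 in control cells. The part of these totals in the ratios of either particle was not tested. All subunits share the same libraries, so these counts are no independent evidence for each gene. Psmb6 had the largest difference of the core, 0.15 (SE 0.066, limma adjusted p = 0.102), with log2 ratios of -0.059, 0.30, 0.083 and 0.27. Psmb5 had the most negative one, -0.024 (SE 0.049, limma adjusted p = 0.711).

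In the regulatory particle, 3 of 17 genes were higher in knockdown cells, against 26.1% of all genes, and the median difference was 0.080 log2 units. It was 0.016 after quantile normalization and 0.16 under ribosomal protein scaling. Psmd3 had 179, 185, 257 and 337 FPKM at the 4 times in knockdown cells and 154, 141, 202 and 241 FPKM in control cells. It was above control at each time, with log2 ratios of 0.22, 0.39, 0.35 and 0.48, while the ranges of the arms overlapped, both being highest at 225 min. The fitted difference was 0.36 (SE 0.052, limma adjusted p = 0.00141), and the call held in all 15 alternative fits, with adjusted p between 0.000241 and 0.00845. Exons of Psmd3 overlap those of Gm12356 on the other strand. Psmd6, another structural lid subunit, had 98.5, 103, 122 and 156 FPKM in knockdown cells and 95.9, 87.7, 108 and 125 FPKM in control cells, and was above control at each time, with a difference of 0.19 (SE 0.054, limma adjusted p = 0.024). Psmc1, a base ATPase that opens the gate of the core, had 140.2, 134, 172 and 215 FPKM in knockdown cells and 134, 118, 151 and 179 FPKM in control cells, again above control each time, with a difference of 0.18 (SE 0.046, limma adjusted p = 0.0169). Leaving out the 15, the 105 or the 225 min values ended the calls of both Psmd6 and Psmc1, with adjusted p up to 0.0858 and 0.0624. Psmd7 and Psmc2 had the most negative differences of lid and base, -0.045 (SE 0.045) and -0.040 (SE 0.054), and neither was called.

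**Figure D4:**
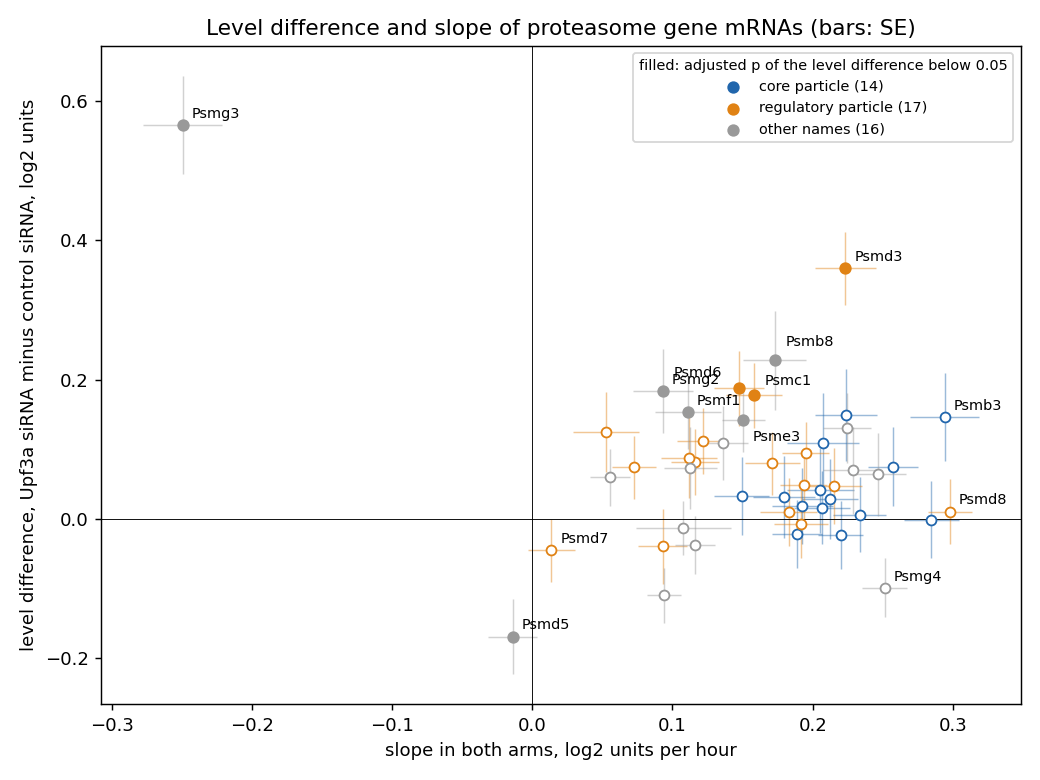
Level difference, knockdown minus control, against the slope in both arms for 47 tested names, with standard errors; filled points had an adjusted p of the level difference below 0.05. Psmg3 stands alone at a slope of -0.25 and a difference of 0.57, and no core gene is filled; scaling to ribosomal protein genes turned all positive slopes except those of Psmb3 and Psmd8 negative, and after scaling to the FPKM total 29 of 47 slopes were negative.

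Outside the 2 particles, 5 further names were higher in knockdown cells and 1 was lower, against 26.1% and 22.3% of all genes. Psmb8 had the values given earlier and a difference of 0.23 (SE 0.071, limma adjusted p = 0.0324). Psme3 had 128, 131, 159 and 198 FPKM in knockdown cells and 125, 118, 140.0 and 171 FPKM in control cells, a difference of 0.14 (SE 0.046, limma adjusted p = 0.0377). Psmf1 had 12.8, 12.7, 15.3 and 17.4 FPKM in knockdown cells and 12.7, 10.2, 13.9 and 15.2 FPKM in control cells, a difference of 0.15 (SE 0.053, limma adjusted p = 0.0457). Psme3, Psmf1 and Psmb8 were above control at every time, and their arms overlapped in range. Psmd5, which holds base ATPases during assembly, was lower, with 35.1, 37.96, 35.7 and 34.8 FPKM in knockdown cells and 42.9, 38.1, 41.8 and 39.3 FPKM in control cells. All 4 knockdown values of Psmd5 were below all 4 control values, and the difference was -0.17 (SE 0.054, limma adjusted p = 0.036). Psme3 lost its call in 7 of 15 alternative fits, Psmf1 in 8 of 14, Psmb8 in 5 of 13 and Psmd5 in 6 of 14. All 4 calls were lost without the 225 min values, those of Psme3 and Psmf1 also without 15 or 105 min, that of Psmb8 without 0 or 15 min and that of Psmd5 without 0 or 105 min. Over all alternatives the adjusted p reached 0.0928 for Psmb8, 0.126 for Psme3, 0.186 for Psmf1 and 0.23 for Psmd5. Psme4, the activator PA200, had the most negative difference of the activators, -0.11 (SE 0.040, limma adjusted p = 0.0539), below control at all 4 times.

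The 4 chaperones that build the core split in behaviour. They act as pairs, Psmg1 with Psmg2 and Psmg3 with Psmg4. Psmg3 had 32.8, 34.5, 26.8 and 18.5 FPKM at the 4 times in knockdown cells and 24.4, 20.8, 19.98 and 10.6 FPKM in control cells. It was above control at every time, and on the values as deposited it was the only name called with a negative slope, -0.25 log2 units per hour (SE 0.028, limma adjusted p = 5.99e-05). Its FPKM at 225 min was 0.563 of that at 0 min in knockdown cells and 0.435 in control cells. The level difference was 0.57 (SE 0.070, limma adjusted p = 0.000727), the largest of all names, and level and slope kept their calls in all 14 alternative fits that included it. Psmg4 had 56.7, 65.6, 84.9 and 114 FPKM in knockdown cells and 63.5, 67.00, 90.6 and 123 FPKM in control cells, and was below control at every time. Its slope was opposite in sign to that of its partner, 0.25 (SE 0.016, limma adjusted p = 3.5e-06), although it was 0.056 when scaled to the FPKM total and -0.039 under ribosomal protein scaling, and its level difference was -0.10 (SE 0.042, limma adjusted p = 0.0904). Psmg1 and Psmg2 had called slopes of 0.11 and 0.093 as deposited, and both slopes were negative when scaled to the FPKM total. Psmg2 had 42.5, 47.4, 52.8 and 58.3 FPKM in knockdown cells and 42.5, 37.4, 47.5 and 48.8 FPKM in control cells, a called difference of 0.18 (SE 0.060, limma adjusted p = 0.0392) that was lost in 8 of 14 alternative fits (adjusted p up to 0.154), among them those without 15, 105 or 225 min and those with median-of-ratios, quantile or median scaling. Psmg1 had a difference of 0.073 (SE 0.059, limma adjusted p = 0.332). Psmg3 lies on chromosome 5 at 139823592 to 139826885 (minus strand, GRCm38), where its exons overlap those of Gm26938 on the same strand, so reads cannot be assigned to it with certainty. Its 3′ UTR of 329 bases held no TATTTAT.

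**Figure D5:**
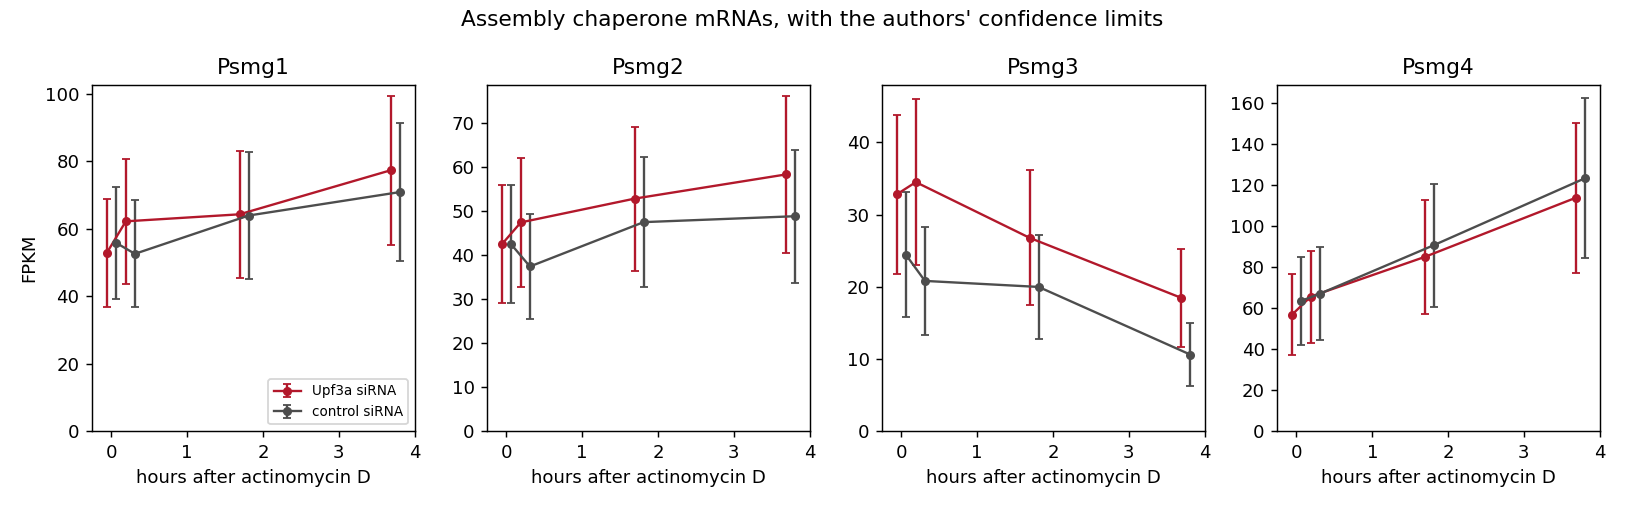
FPKM of the 4 core assembly chaperones against hours after actinomycin D, knockdown arm in red and control arm in grey, with the authors' confidence limits as bars. Psmg3 alone ends below its value at 0 min, at 18.5 FPKM in knockdown cells and 10.6 FPKM in control cells at 225 min, and the limits of the arms overlap at each time for all 4 genes.

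The change of the ratio with time, which asks whether the knockdown altered stability, was called for none of the 47 names with limma, against 0.00873% of all genes (1 of 11452), and none had an unadjusted p below 0.05. The estimates were above 0 in 43 of 47, against 53.3% of all genes, and their median was 0.040 log2 units per hour, against 0.0033 over all genes. Positive estimates were also common among other abundant genes. At a mean of 50 FPKM or more, a comparison added after the data were seen, 35 of 37 members were above 0, against 81.7% of 1719 genes. The medians there were 0.042 for members and 0.027 for all. The median over the 47 names was 0.018 when scaled to the FPKM total, 0.0088 after quantile normalization and 0.0029 under ribosomal protein scaling. The core median was 0.054 and the regulatory median 0.039, and without the 225 min values they were -0.0013 and 0.0093. Psmb3 had the largest estimate, 0.075 (SE 0.034, limma adjusted p = 0.746), and Psma2 came next at 0.073 (SE 0.032). The lowest was that of Psmc3ip at -0.011 (SE 0.028), followed by Psmd7 at -0.011 (SE 0.032). The member median was 0.0027 without the 225 min values. With 2 residual degrees of freedom the standard errors of members reached 0.046, so differences of this size were not detectable.

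Genes that work with the proteasome but carry other names were read from lists, with slopes on the deposited scale. Of 7 partners bound to the regulatory particle, 3 were higher in knockdown cells, against 26.1% of all genes, and none lower, against 22.3%, with a median difference of 0.16. Uchl5, a deubiquitinating enzyme, averaged 28.1 ± 3.65 FPKM in knockdown cells and 21.5 ± 1.46 FPKM in control cells (mean ± SD, n = 4 time points each), a difference of 0.37 (SE 0.055, limma adjusted p = 0.0016). Ube3c, a ubiquitin ligase, averaged 29.05 ± 2.25 FPKM in knockdown cells and 22.7 ± 1.503 FPKM in control cells, a difference of 0.34 (SE 0.053). AI314180 averaged 25.4 ± 3.06 FPKM in knockdown cells and 21.3 ± 2.00 FPKM in control cells, a difference of 0.24 (SE 0.042). The partner list had a median slope of 0.034, with 3 of 7 called higher (42.9%), against 42.7% of all genes. Among them was Shfm1, a small lid subunit, at 0.25. Pomp, which matures the core, had a slope of 0.23 (SE 0.020) and a level difference of 0.032 that was not called.

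Of 6 genes for the transcriptional control of proteasome genes, 1 was higher in knockdown cells and 2 lower, against 26.1% and 22.3% of all genes. Ddi2, the protease that activates Nfe2l1, had 29.3, 25.95, 26.7 and 22.7 FPKM in knockdown cells and 17.3, 14.4, 16.7 and 15.2 FPKM in control cells, without overlap, a difference of 0.68 (SE 0.053, limma adjusted p = 0.000133). Nfe2l1 itself was lower by a difference of -0.18 (SE 0.057, limma adjusted p = 0.0307), and Mafg, a dimer partner, by -0.41 (SE 0.049, limma adjusted p = 0.000649). Of the same genes, 4 had a called negative slope, against 38.6% of all genes, and none a positive one, against 42.7%. The steepest was that of Nfe2l2 at -0.58 (SE 0.016). Nfe2l2 had 27.5, 26.7, 12.7 and 5.50 FPKM in knockdown cells and 29.1, 28.1, 14.7 and 6.09 FPKM in control cells.

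Of the enzymes that activate ubiquitin, Uba1 had a called slope of 0.23 and Uba6 one of -0.063 without a call, and neither passed the test of level. Among 8 shuttle factors and unfoldase genes 3 were higher in knockdown cells and 1 lower, against 26.1% and 22.3% of all genes. Ubqln1, a shuttle factor, had 70.4, 71.6, 87.2 and 101 FPKM in knockdown cells and 50.5, 42.4, 50.8 and 51.9 FPKM in control cells. The arms of Ubqln1 did not overlap, and the difference was 0.73 (SE 0.073, limma adjusted p = 0.000324). Rad23b, which carries ubiquitin chains to the regulatory particle, differed by 0.27 (SE 0.047), Ubqln4 by 0.17 (SE 0.042) and Ufd1l, a cofactor of the unfoldase Vcp, by -0.16 (SE 0.040).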

How the data were processed

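Reads were aligned with TopHat2 and quantified with Cufflinks on mm10, per the submitters' processing notes. No source used here gives versions or the annotation. The deposited table gives FPKM and confidence limits of unstated level, per the file headers, in 1 value per gene and condition. How the authors combined the 2 cultures of a condition, and whether columns were scaled to each other, is not stated. FPKM is no count, and depth is unknown. Every value of the 49 members had the status OK.

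Values were taken as log2(FPKM + 1), a scale that understates changes of low genes, for the 11452 genes averaging 1 FPKM or more. limma 3.58.1 in R 4.3.3 (eBayes without trend) was fitted on all of them for the level difference (time as factor plus arm), the decay rate difference (arm by hours, negative meaning faster loss in the knockdown arm) and the slope (hours plus arm). Calls needed a Benjamini-Hochberg adjusted p below 0.05. The fits were tested on simulated data with 200 changed genes and independent noise, which is simpler than these data. In these data 2986 genes were called higher and 2557 lower in level, and 4891 and 4423 in slope. With fewer changed genes the adjustment is stricter, so the level and slope recoveries need not hold for these data. Of level differences of 0.15, 0.3 and 0.5 log2 units, 0%, 55.6% and 96.7% were recovered. For decay rate differences of 0.05, 0.1 and 0.3 log2 units per hour it was 0%, 1.4% and 89.6%. For slopes of 0.05, 0.1 and 0.2 it was 4.4%, 70.8% and 100%. Upf3a was tested by exact sign flips. Python 3.11.15 was used for reading.

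Members, lists and roles were chosen with earlier results of these data known. Named in each role were the genes with the highest and lowest level and the largest positive and negative effects, each catalytic subunit with its inducible counterpart, and up to 3 genes per list by effect size; further members were named after their values were seen. The result of 1 gene list is not reported here. Gene positions, transcript lengths and 3′ UTRs came from GENCODE vM21 on GRCm38, promoters from RefSeq GRCm38.p6. The locus given for 7 members is shared with another gene of the table, 13 members overlap exons of another gene, and 4 annotated pseudogenes are named after 3 members, so reads may have been split there. Alternatives were pseudocounts of 0.1 and 5, other filters, 5 scalings, another variance model, the authors' limits, and leaving out each time point.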

Additional observations from a re-analysis of the deposited data

How the results depend on the processing

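No pairing by culture was possible because each condition has 1 value and the groups share only the replicate number 1. The level fit and the sign flips of Upf3a paired the arms by time point. Of the level differences, the values as deposited gave 8 members higher and 1 lower. The counts were 5 and 0 with a pseudocount of 0.1, 8 and 3 with 5, 4 and 1 without a filter, 7 and 2 at a mean FPKM of 5 or more, 4 and 0 at 50 or more (chosen after seeing the data), 21 and 0 under ribosomal protein scaling, 6 and 3 after quantile normalization, 5 and 3 by median-of-ratios, 5 and 3 after median centring, 9 and 1 when scaled to the FPKM total (added after seeing the data), 9 and 2 with trended robust eBayes, and 0 and 0 by the authors' limits. Without 0, 15, 105 or 225 min they were 10 and 0, 2 and 1, 3 and 0, and 2 and 0. Among the limma fits, the share of all tested genes called higher in level ran from 14.9% without a filter to 33.4% under ribosomal protein scaling. The median level difference was 0.14 under ribosomal protein scaling and 0.0057 under quantile normalization. That of the decay rate was 0.0029 under ribosomal protein scaling and 0.0027 without 225 min.

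Slopes gave 0 members lower at a mean FPKM of 50 or more, 15 higher and 8 lower (median 0.015, core minus regulatory 0.032) after quantile normalization, 7 higher and 19 lower (median -0.013) when scaled to the FPKM total, and 0 higher and 41 lower (median -0.10) under ribosomal protein scaling. Core minus regulatory was 0.031 without 225 min, against 0.052. Negative slopes numbered 2 as deposited, 18 after quantile normalization, 29 when scaled to the FPKM total and 45 under ribosomal protein scaling. Examples of slopes that turned negative are, after quantile normalization, Psmc1 (-0.016), Psmc6 (-0.083), Psmd6 (-0.0005), Psmd7 (-0.12) and Psme3 (-0.017). Scaled to the total, examples are Psmb9 (-0.035), Psmc1 (-0.038), Psmc6 (-0.14), Psmd6 (-0.049), Psmd7 (-0.18), Psme3 (-0.046), Psmf1 (-0.073) and Psmg2 (-0.10). Under ribosomal protein scaling, examples are Psmb8 (-0.053), Psmb9 (-0.10), Psmc1 (-0.13), Psmc6 (-0.24), Psmd3 (-0.069), Psmd6 (-0.14), Psmd7 (-0.28), Psme3 (-0.14), Psmf1 (-0.16), Psmg2 (-0.19) and Psmg4 (-0.039). Calls over all genes moved too: 559 higher and 8581 lower in slope when scaled to the total, 3826 higher and 1285 lower in level under ribosomal protein scaling, against 2986 and 2557, and 50 and 10686 in slope, against 4891 and 4423. After quantile normalization 5309 of all genes were higher and 3784 lower in slope. Which scaling is nearer to the amount of mRNA per cell was not tested. Depth, 1 value per condition and few residual degrees of freedom limit all tests.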
